A study of Homo sapiens with 6 samples.

Results

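Complement is a cascade of blood and tissue proteins that marks particles and cells for removal and can pierce membranes. Its classical, lectin and alternative routes meet at the cleavage of C3, whose larger fragment binds to surfaces, and C5 then starts the assembly of the membrane attack complex. Host cells carry regulators on their surface that stop the cascade there. The liver makes most of the soluble proteins, but epithelial and carcinoma cells also transcribe several of them.

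The expression of 9 complement genes was followed in H2122, a human lung cancer cell line, after knockout of SMARCA4, an ATPase subunit of the SWI/SNF chromatin remodelling complexes. The genes were chosen by symbol and comprise the components C3 and C5, the proteases CFB, C1R and C1S, the soluble regulator CFI and the membrane regulators CD46, CD55 and CD59. All 9 were found among the 59050 gene symbols counted, and all 9 were among the 17809 genes that passed a filter on low counts and were tested. RNA-seq had been done on 3 libraries with the genotype label SMARCA4 KO and 3 parental libraries labelled WT, all from vehicle-treated cells of the same line cultured in RPMI medium with serum. The sample titles carry the number 1 for each knockout library and the numbers 1, 3 and 6 for the parental ones, whereas the labels of the deposited files number the knockout libraries 1, 2 and 3. Neither says whether these are clones or cultures, so that traits of a single knockout clone cannot be told apart from the loss of SMARCA4, and p-values cover only library-to-library spread, which may be technical.

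Each library held 55120937 to 59917980 reads assigned to genes. Levels are given as CPM, the reads of a gene scaled to a common library size by the TMM method, and group means with their SD rest on n = 3 libraries each. Changes are log2 fold changes of knockout minus parental from edgeR's quasi-likelihood test, with Benjamini-Hochberg adjustment over all genes tested and a threshold of 0.05. The limit set by 3 reads lay at 0.0501 to 0.0544 CPM, a limit that covers counting error only. SMARCA4 itself stood at 20.7, 19.3 and 24.9 CPM in knockout libraries, against 231.5, 214.5 and 335.0 CPM in parental ones (log2 fold change -3.59, edgeR adjusted p = 0.000176). Parental replicate 3 was separated from the other 5 libraries along a principal component with 22.9% of the variance, and calls or directions of complement genes that rest on it are given with and without it. Of the epithelial markers EPCAM, KRT7, KRT8, KRT18, KRT19, CDH1, NKX2-1, NAPSA, SFTPB and MUC1, 8 were tested. Of these 6 fell, where 14.3% of all genes tested fell. Without parental replicate 3, 8 of 9 fell, where 30.8% of all genes tested fell. The call of KRT8 (log2 fold change -0.70, edgeR adjusted p = 0.0467) was lost on leaving out any library other than parental replicate 3. The summed level of all listed markers was 3170 to 3430 CPM in knockout libraries and 7140 to 8250 CPM in parental ones. The lung markers NKX2-1, with 1 read in the knockout and 37 reads in the parental group, and SFTPB, with 18 knockout and 15 parental reads, were near the limit of detection.

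Among the 9 complement genes, 3 rose (C1S, CD46 and CD55), 3 fell (C3, CFB and CFI) and 3 did not pass (C5, C1R and CD59). The 6 called genes compare with 27.6% of all genes tested, of which 13.3% rose and 14.3% fell. The groups did not overlap for the same 6 genes, where 49.8% of all genes tested had groups that did not overlap. The median log2 fold change was 0.16 for the 9 genes and 0.02 for all genes tested. By role, transcripts of the central component, of the alternative pathway protease and of a soluble inhibitor were lower in the knockout, and those of a classical pathway protease and of 2 membrane regulators were higher.

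**Figure D1:**
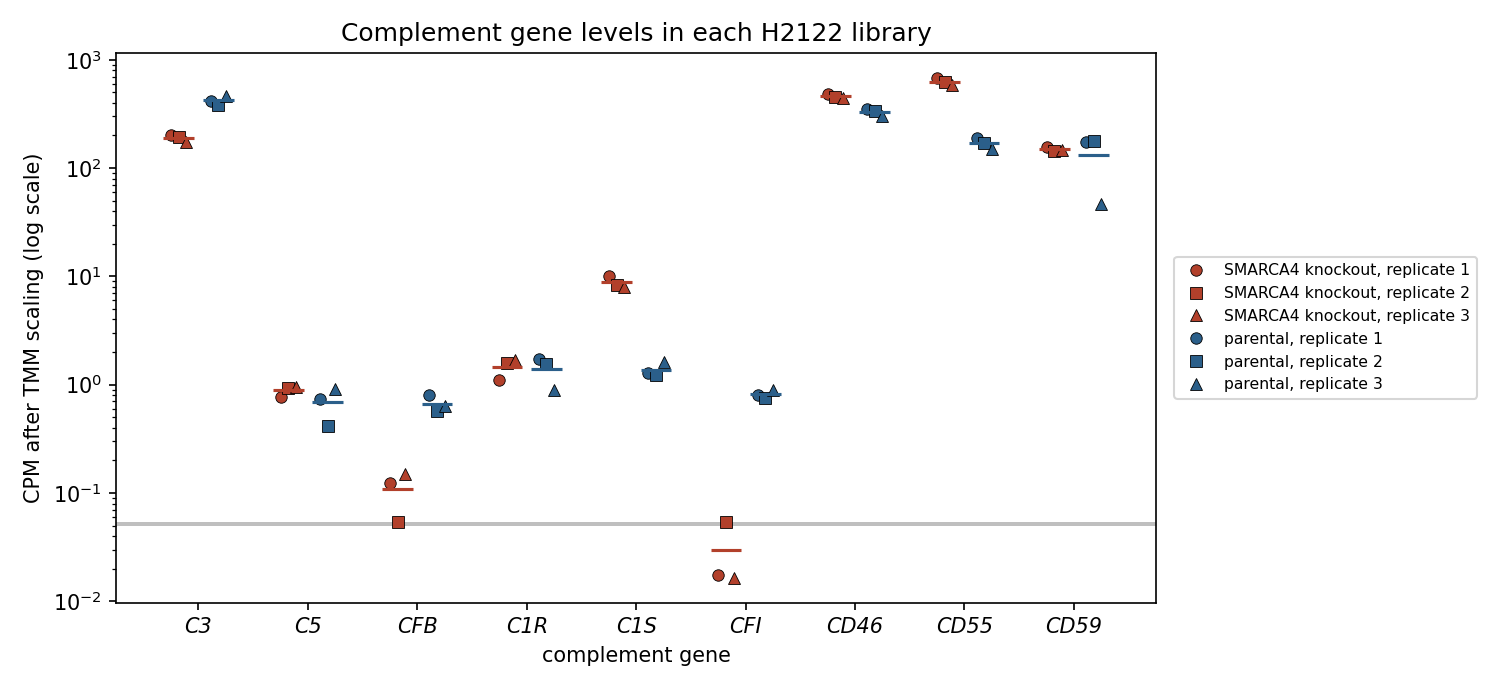
Level of each complement gene in every library, in CPM after TMM scaling on a log axis, with SMARCA4 knockout libraries in red to the left of parental libraries in blue; symbols mark the replicate, horizontal lines the group means, and the grey band the limit of 3 reads. CFI fell to or below the band in the knockout, and CD59 in parental replicate 3 lay at 46.6 CPM, below the other 5 libraries.

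C3 (chromosome 19, 6677704 to 6730562 on GRCh38, ENSG00000125730.16) encodes the component whose cleavage all routes share. It was measured at 203.3, 192.5 and 175.0 CPM in knockout libraries and at 414.8, 384.5 and 464.8 CPM in parental libraries. Every knockout library was lower than every parental library, and no library was below 175.0 CPM. The means were 190.3 ± 14.3 CPM in knockout cells and 421.4 ± 40.6 CPM in parental cells, a log2 fold change of -1.15 (SE 0.12, edgeR adjusted p = 0.00116). Of all genes tested, 10.3% had a larger fall. With parental replicate 3 left out, C3 changed by -1.12 with an edgeR adjusted p = 3.9e-09.

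The genes whose pattern over the 6 libraries was most like that of C3 were EPS8, STK26 and HMOX2, among 10982 genes with a mean of at least 5 CPM. Their centred log2 levels differed from those of C3 by a root mean square of 0.04, 0.0403 and 0.0503. EPS8, which encodes a signalling adaptor that binds actin, averaged 36.4 CPM in knockout cells and 84.5 CPM in parental cells. These likenesses describe 6 points that share their group difference and their libraries.

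C5 (chromosome 9, 120952335 to 121050276, ENSG00000106804.7) encodes the component cleaved after C3 to release the anaphylatoxin C5a. It had 44, 51 and 58 reads in knockout libraries, against 42, 25 and 52 reads in parental ones, so its groups overlapped at a level under 1 CPM. The log2 fold change was 0.37 with a 95% interval of -0.40 to 1.13 (edgeR adjusted p = 0.441). That interval spans falls and rises, and C5 did not pass the test.

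CFB (chromosome 6, 31945650 to 31952084, ENSG00000243649.8) encodes factor B, the protease that forms the C3 convertase of the alternative pathway. It had 7, 3 and 9 reads in knockout libraries and 46, 34 and 36 reads in parental libraries. The gene was therefore scarce throughout, and lower in each knockout library than in any parental one. The means were 0.109 ± 0.049 CPM in knockout cells and 0.669 ± 0.122 CPM in parental cells (log2 fold change -2.58, SE 0.37, edgeR adjusted p = 0.004). The parental group had 6.05 times the CPM of the knockout group, with a 95% counting interval of 3.70 to 10.4. In GENCODE 29, 45.5% of the exon bases of CFB are shared with other genes, mostly with AL645922.1 on the same strand, and reads there may not have been counted for CFB in either group.

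CFI (chromosome 4, 109740694 to 109802179, ENSG00000205403.13) encodes factor I, the soluble protease that inactivates C3b and C4b together with cofactors such as CD46. It had 1, 3 and 1 reads in knockout libraries and 46, 45 and 51 reads in parental libraries. All 3 knockout libraries lay at or under the limit of 3 reads. The log2 fold change was -4.71 (SE 0.40, edgeR adjusted p = 0.00049), and 1.9% of all genes tested had a larger fall. The parental CPM was 28.1 times that of the knockout, with a 95% counting interval of 11.8 to 88.0. For CFI, 32.0% of exon bases are shared with another annotated gene on the same strand.

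The 250 bases before the annotated starts of CFB, CFI and CD55 are shown from RefSeq on GRCh38.p14. Windows were found for 7 of the 9 genes. Capitals mark matches, on either strand, to letters described for factors that act at complement promoters: TTNCNNAA for C/EBP, TTCNNNGAA for GAS elements bound by STAT factors, GGGCGG for GC boxes, and the consensus letters of NF-kB sites and of interferon-stimulated response elements. TGANTCA for AP-1 was also searched and had no match in these windows.
CFB, chr6:31945845-31946094, plus strand: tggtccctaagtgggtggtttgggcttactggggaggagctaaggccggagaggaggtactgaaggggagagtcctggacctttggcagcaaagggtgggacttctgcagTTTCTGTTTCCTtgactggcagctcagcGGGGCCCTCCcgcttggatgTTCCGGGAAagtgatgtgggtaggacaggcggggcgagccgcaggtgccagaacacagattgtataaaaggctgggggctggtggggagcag
CFI, chr4:109802000-109802249, minus strand: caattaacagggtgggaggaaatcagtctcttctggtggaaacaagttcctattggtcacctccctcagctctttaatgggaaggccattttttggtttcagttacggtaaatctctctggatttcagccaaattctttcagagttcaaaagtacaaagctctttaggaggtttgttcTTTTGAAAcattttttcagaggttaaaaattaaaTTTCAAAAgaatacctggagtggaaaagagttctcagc
CD55, chr1:207321428-207321677, plus strand: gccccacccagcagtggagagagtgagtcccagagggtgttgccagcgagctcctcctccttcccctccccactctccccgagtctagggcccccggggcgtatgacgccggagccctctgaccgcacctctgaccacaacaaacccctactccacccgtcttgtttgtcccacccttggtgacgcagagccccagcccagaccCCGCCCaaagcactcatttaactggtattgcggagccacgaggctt

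The CFB window held an interferon-stimulated response element match 140 to 129 bases before the start, an NF-kB match 112 to 103 bases before it and a GAS match 92 to 84 bases before it, none overlapping another. The CFI window held 2 matches to the C/EBP letters, 72 to 65 and 38 to 31 bases before the start, and none to the other letters searched. The CD55 window held a GC box 46 to 41 bases before the start and no other match. Over 35116 promoter windows of the same length, 42.6% held the GC box, 33.2% the C/EBP letters, 10.0% the NF-kB letters, 6.6% the GAS letters, 6.6% the AP-1 letters and 2.0% the interferon-stimulated response element. Base composition also differed, with G and C making up 60.0% of the CFB window, 38.0% of the CFI window and 64.0% of the CD55 window, against a median of 58.0% over all windows. Of the 7 genes with windows, 3 held the C/EBP letters, 3 the GAS letters and 3 the GC box. C1R and CD59, which did not pass, held both C/EBP and GAS letters, and CD59 also held a GC box. CD46 and CD55, which rose, held the GC box and none of the other letters. CFB and CFI, which fell, held no GC box. Whether the letters go with the direction of change was not tested. These matches describe letters in a window, and no binding was measured.

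C1R and C1S encode the proteases that C1q activates at the start of the classical pathway, where C1r cleaves C1s. They lie 9.2 kb apart on chromosome 12 in convergent orientation, C1S at 6988259 to 7071032 (ENSG00000182326.14) and C1R at 7080199 to 7092607 (ENSG00000159403.16). C1S had 575, 459 and 484 reads in knockout libraries, against 73, 73 and 93 reads in parental ones. The means were 8.84 ± 1.16 CPM in knockout cells and 1.38 ± 0.224 CPM in parental cells. All knockout libraries were higher than all parental libraries, and C1S had the largest rise of the 9 genes, with a log2 fold change of 2.68 (SE 0.20, edgeR adjusted p = 0.000276) that 1.7% of all genes tested exceeded.

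Its neighbour C1R had 62, 88 and 101 reads in knockout libraries and 99, 92 and 51 reads in parental libraries. The groups overlapped, and parental replicate 3 was the lowest library. The log2 fold change was 0.07 with a 95% interval of -0.69 to 0.82 (edgeR adjusted p = 0.898), and -0.21 with an interval of -0.66 to 0.24 without parental replicate 3. In GENCODE 29, 11.4% of the exon bases of C1R are shared with its neighbour C1RL and 3.5% of those of C1S with EMG1.

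The ratio of C1S to C1R, in reads per exon base within a library, needs no scaling between libraries. It was 8.45, 4.75 and 4.36 in knockout libraries and 0.672, 0.723 and 1.66 in parental ones. The ratio was thus above 1 in every knockout library and below 1 in parental replicates 1 and 2. The log2 ratio was 2.59 higher in the knockout in a two-sided exact permutation test over libraries with p = 0.1, the smallest p that 3 against 3 libraries allow. Without parental replicate 3 that difference was 3.01.

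CD46, CD55 and CD59 encode surface proteins that protect host cells. CD46 is the cofactor with which factor I cleaves C3b and C4b, CD55 speeds the decay of C3 convertases, and CD59 blocks the assembly of the membrane attack complex. CD55 and CD59 are held in the membrane by a GPI anchor. All were abundant here, between 46.6 and 678.7 CPM in any library.

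CD55 (chromosome 1, 207321376 to 207386804, ENSG00000196352.15) was measured at 678.7, 618.6 and 589.8 CPM in knockout libraries and at 187.6, 171.8 and 150.9 CPM in parental libraries. The lowest knockout library was far above the highest parental one. The means were 629 ± 45.4 CPM in knockout cells and 170.1 ± 18.4 CPM in parental cells, a log2 fold change of 1.89 (SE 0.13, edgeR adjusted p = 0.000231). Of all genes tested, 3.3% had a larger rise.

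CD46 (chromosome 1, 207752057 to 207795513, ENSG00000117335.19), which lies 365.3 kb from CD55 in the same orientation, rose less. It was measured at 486.4, 457.0 and 440.4 CPM in knockout libraries and at 349.0, 336.8 and 304.4 CPM in parental libraries. These groups also did not overlap. The log2 fold change was 0.48 (SE 0.11, edgeR adjusted p = 0.0202), and 22.6% of all genes tested had a larger rise. The call was lost on leaving out any of the libraries other than parental replicate 3, with values of 0.45 to 0.52 and edgeR adjusted p up to 0.099, and with no low-count filter.

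CD59 (chromosome 11, 33703010 to 33736491, ENSG00000085063.15) was measured at 155.0, 144.9 and 146.1 CPM in knockout libraries and at 172.9, 178.6 and 46.6 CPM in parental libraries. Parental replicate 3 alone was below the knockout libraries, and the other parental libraries were above them. With all 6 libraries the log2 fold change was 0.16 with a 95% interval of -0.98 to 1.31 (edgeR adjusted p = 0.83). Without parental replicate 3 it was -0.29 (SE 0.04, 95% interval -0.39 to -0.19, edgeR adjusted p = 0.000116), a fall. In that fit 61.6% of 18372 genes tested were called, 30.8% rising and 30.8% falling, and the complement genes counted 3 rising, 4 falling and 2 not passing.

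**Figure D2:**
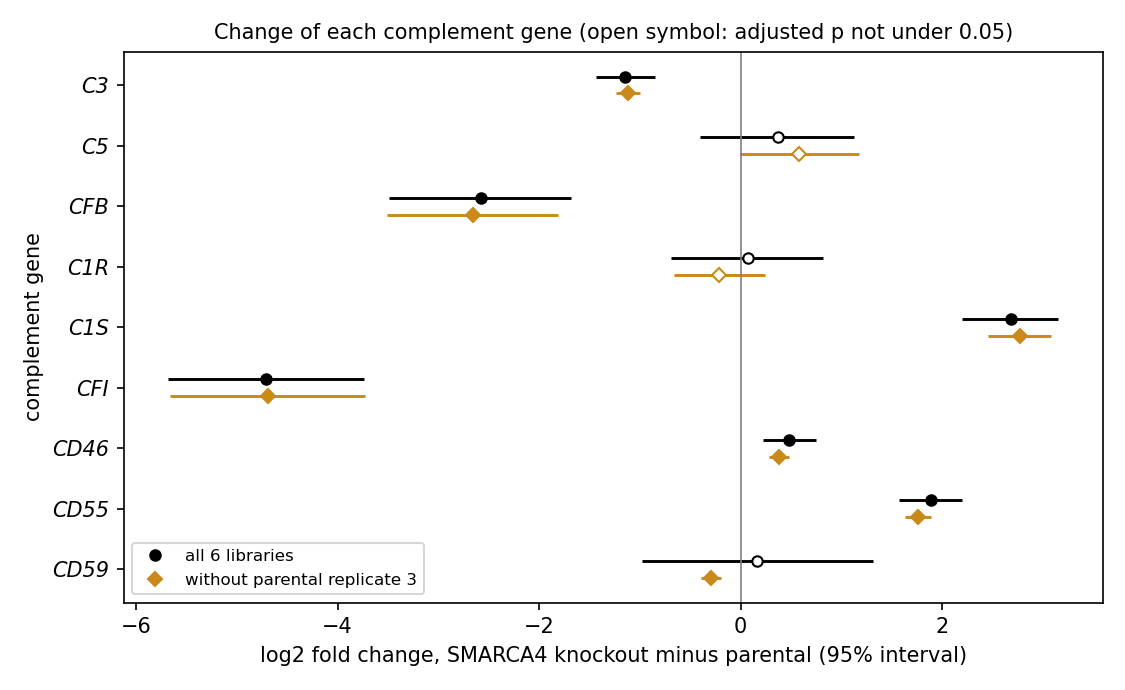
Log2 fold change of each complement gene, SMARCA4 knockout minus parental, with its 95% interval, over all 6 libraries (black circles) and without parental replicate 3 (orange diamonds); open symbols did not pass an adjusted p of 0.05. CD59 moved from 0.16 with a wide interval to -0.29 when that library was left out, while C3, CFB, CFI, C1S, CD46 and CD55 kept their direction and call in this comparison.

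Levels of different genes were compared as CPM per kilobase of annotated exon. In the knockout the order was CD55 at 106 ± 7.68, CD46 at 53.0 ± 2.67, C3 at 22.8 ± 1.71, CD59 at 14.4 ± 0.535, C1S at 1.37 ± 0.18, C1R at 0.247 ± 0.0532, C5 at 0.136 ± 0.0148, CFB at 0.0218 ± 0.0098 and CFI at 0.00606 ± 0.00442 CPM per kilobase. Only CFB and CFI overlapped among neighbours in that order. In the parental group the order was C3 at 50.6 ± 4.87, CD46 at 37.9 ± 2.65, CD55 at 28.8 ± 3.12, CD59 at 12.8 ± 7.21, C1R at 0.236 ± 0.0744, C1S at 0.213 ± 0.0347, CFI at 0.168 ± 0.0149, CFB at 0.134 ± 0.0245 and C5 at 0.106 ± 0.0384 CPM per kilobase. There the ranges of C1R and C1S, of CFI and CFB, and of CFB and C5 overlapped. The lengths include exon bases shared with other genes, 45.5% for CFB and 32.0% for CFI. Reads there may not have been counted, so CFB and CFI may stand too low in both orders. C3 was thus the highest of the 9 on this scale in parental libraries and the third in knockout libraries.

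Summed on the same per-length scale, the 3 membrane regulators stood at 186, 171 and 164 CPM per kilobase in knockout libraries and at 88.5, 85.0 and 65.0 in parental libraries. All knockout libraries were higher, and the log2 difference was 1.14 (two-sided exact permutation test, p = 0.1, the smallest possible). CD55 made up 61.2% ± 0.593 of that sum in the knockout and 36.5% ± 2.59 in the parental group. The share of CD46 was 30.5% ± 0.363 in the knockout and 48.2% ± 4.85 in the parental group, and that of CD59 was 8.27% ± 0.27 in knockout libraries and 15.4% ± 7.34 in parental ones. The share of CD59 was 8.06%, 8.17% and 8.57% in knockout libraries and 18.9%, 20.3% and 6.92% in parental libraries. Parental replicate 3 lay below every knockout library, and the other parental libraries lay above them.

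**Figure D3:**
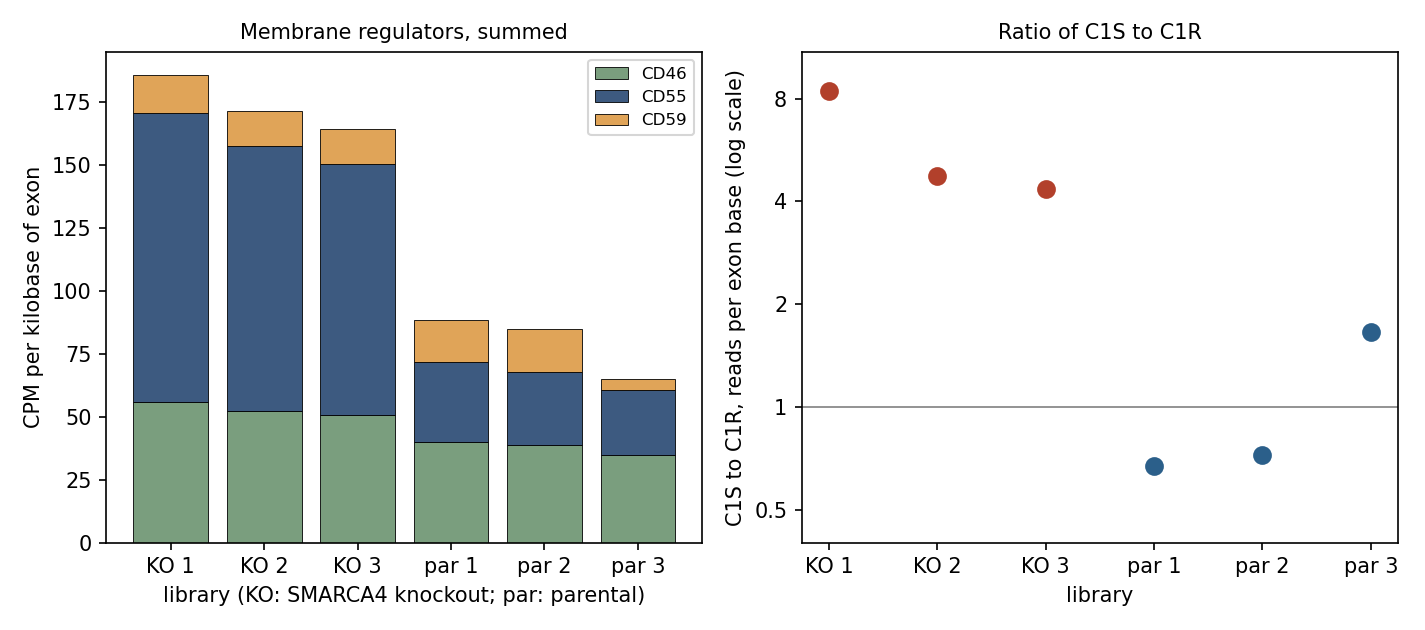
Left, the summed level of CD46, CD55 and CD59 in each library in CPM per kilobase of exon, stacked by gene, and right, the ratio of C1S to C1R reads per exon base on a log axis; knockout libraries stand left of parental ones. The knockout sums lie between 164 and 186 against 65.0 to 88.5 in parental libraries, and the knockout ratios lie between 4.36 and 8.45 against 0.672 to 1.66.

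Of 54 other complement genes, 19 were tested. Of these 7 rose, 3 fell and 9 did not pass, where 13.3% of all genes tested rose and 14.3% fell. The median log2 fold change of the 19 was 0.01. The 35 that were not tested had too few reads for the filter, among them the C1q chains C1QB and C1QC and the terminal components C6, C8A and C8B, with 0 reads in all 6 libraries. The transcripts measured therefore did not cover the whole cascade. SERPING1, which encodes the inhibitor of C1r and C1s, had 3 reads in knockout cells and 1 read in the parental group.

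Among soluble regulators, 2 of 5 tested genes rose, 1 fell and 2 did not pass. CLU, which encodes clusterin, a chaperone that also binds the terminal complex, was measured at 433.4, 419.5 and 416.3 CPM in knockout libraries and at 17.4, 16.7 and 6.84 CPM in parental libraries. That is a rise of 4.95 on the log2 scale (SE 0.40, edgeR adjusted p = 0.000424). VTN, which encodes vitronectin, an adhesion protein that also binds the terminal complex, had 282, 271 and 282 reads in knockout libraries and 0 in each parental library. Set against 3 reads over the parental group, its CPM was at least 281-fold higher in the knockout. CFHR3 and C4BPA did not pass, with log2 fold changes of 0.13 and -0.11. Without parental replicate 3 both changed sign, to -0.22 and 1.05, and still did not pass. C4BPA had 5, 5 and 25 reads in parental libraries.

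In the alternative pathway, CFD, which encodes the protease that cleaves factor B, averaged 11.3 ± 0.497 CPM in knockout cells and 2.97 ± 0.463 CPM in parental cells. It rose by 1.93 on the log2 scale (SE 0.16, edgeR adjusted p = 0.000458), while CFB, its substrate, fell. CFP, which encodes properdin, was not tested. At the start of the classical and lectin pathways, 1 of 4 tested genes rose and 3 did not pass. The riser was MASP1, named after its values were seen, a lectin pathway protease at 1.17 ± 0.174 CPM in knockout cells and 0.362 ± 0.201 CPM in parental cells (log2 fold change 1.69, edgeR adjusted p = 0.0308). That call was lost without any of the knockout libraries or without parental replicate 2, at edgeR adjusted p up to 0.106. C1RL, COLEC10 and COLEC12 changed by -0.32, -1.63 and 0.53 and did not pass. C1RL and COLEC10 fell without parental replicate 3, to -0.42 and -1.99. The terminal component C8G did not pass (0.01).

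Among the other membrane regulators, THBD, which encodes thrombomodulin, an anticoagulant receptor that also promotes inactivation of C3b, averaged 524.7 ± 6.86 CPM in knockout cells and 124.9 ± 17.9 CPM in parental cells (log2 fold change 2.07, SE 0.14, edgeR adjusted p = 0.00021). SUSD4, named after its values were seen, encodes a complement control protein and fell to 16 reads in the knockout group, against 153 reads in the parental group (log2 fold change -3.21, edgeR adjusted p = 0.00325). CSMD3 did not pass (-1.19) and was called at -1.76 without parental replicate 3. Among receptors, 2 of 5 tested genes rose, 1 fell and 2 did not pass. C5AR2, a C5a receptor that does not couple to G proteins, rose to 11.7 ± 0.389 CPM in the knockout, against 2.60 ± 0.94 CPM in parental cells (log2 fold change 2.17, edgeR adjusted p = 0.0032). C5AR1, the G protein-coupled receptor for C5a, did not pass (-0.17). ITGB2, the beta chain of complement receptors on leukocytes, rose to 4.09 ± 0.581 CPM, against 0.970 ± 0.197 CPM in parental cells (2.07, edgeR adjusted p = 0.00124), whereas its partner chains ITGAM and ITGAX had 19 and 15 reads in knockout cells and 21 and 23 reads in the parental group and were not tested.

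Parental replicate 3 set much of the size of the CR2 change, and the call and direction of C1QBP depended on it. CR2, a receptor for C3 fragments known from B cells, had 19, 31 and 20 reads in knockout libraries and 61, 67 and 342 reads in parental ones. Its log2 fold change was -2.73 (edgeR adjusted p = 0.0485) with all libraries. Without parental replicate 3 it was -1.47 and CR2 was still called as falling (edgeR adjusted p = 4e-04). The call of CR2 was lost without any of the knockout libraries, with limma-voom, and with a minimum of 1 CPM in 3 libraries. C1QBP, a mostly mitochondrial protein that binds C1q, stood at 209.5, 192.1 and 181.8 CPM in knockout libraries and at 136.8, 123.0 and 367.0 CPM in parental libraries. It did not pass with all libraries (-0.10) and rose without parental replicate 3 (0.53).

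**Figure D4:**
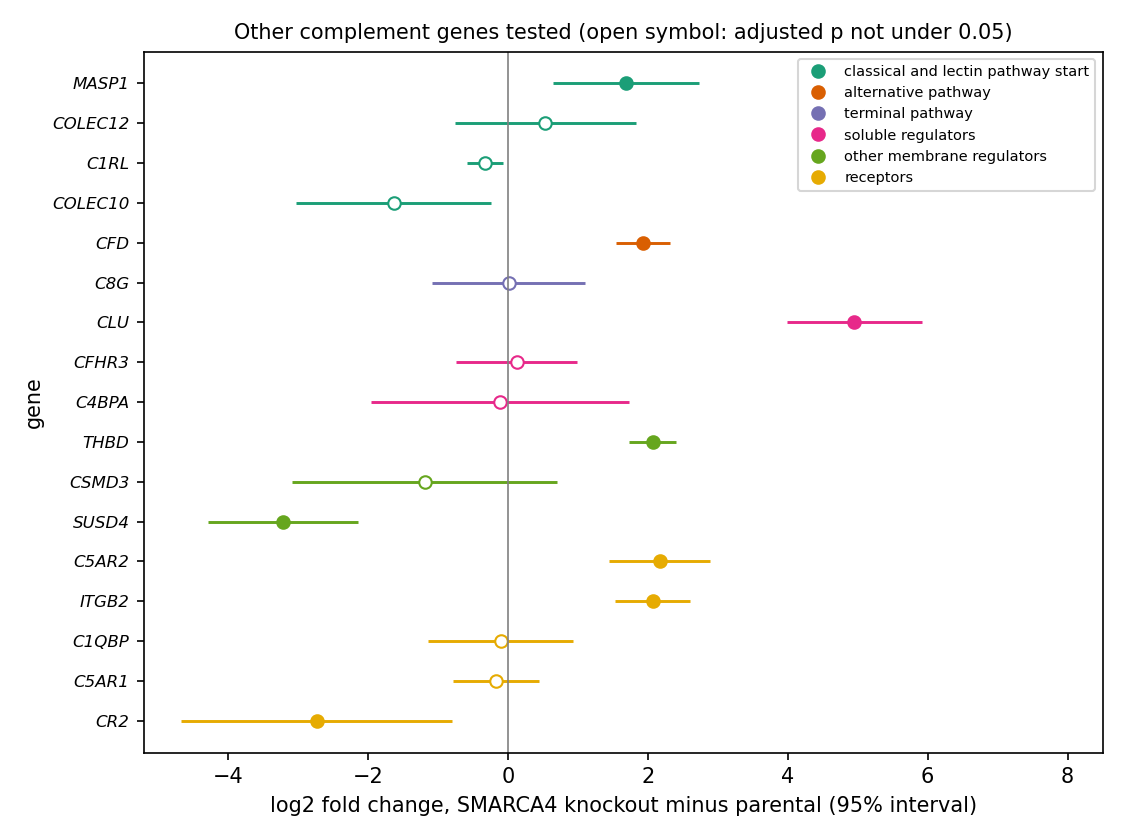
Log2 fold change, SMARCA4 knockout minus parental, with its 95% interval, of the other complement genes tested, coloured by role; open symbols did not pass an adjusted p of 0.05. VTN, with 0 reads in parental libraries, is left out because it has only a bound, and a further gene is not shown. CLU lies highest at 4.95, and SUSD4 and CR2 are called genes below 0.

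Markers of other cell types that make complement proteins were set beside these values. In bulk libraries fewer cells of a type and less RNA per cell cannot be told apart. The hepatocyte markers ALB, APOA1, APOA2, TTR, AHSG and APOC3 summed to 0.0707 to 0.290 CPM in knockout libraries and 0.0350 to 0.229 CPM in parental ones, and 0 of 6 were tested, with TTR at 0 reads in all. The macrophage markers PTPRC, CD14, CD68, CD163, CSF1R and MARCO summed to 0.563 to 0.743 CPM in knockout cells and 1.14 to 2.16 CPM in parental libraries, with PTPRC, the common leukocyte antigen, at 0 reads throughout, and of the 3 tested MARCO fell (-2.19) and 2 did not pass. The call of MARCO was lost without knockout replicate 1, knockout replicate 3 or parental replicate 2. Whether such cells added to the level of C3 was not tested. Of 6 fibroblast markers, 3 were tested: LUM and COL3A1 rose (6.18 and 5.00) and COL1A1 fell (-1.46), with summed levels of 53.4 to 58.1 CPM in knockout cells and 39.3 to 110 CPM in parental libraries. Without parental replicate 3, COL3A1 stood at 6.78 and COL1A1 at -0.89, and the call of COL1A1 was lost without any of the knockout libraries and with limma-voom. COL1A2, with 2 reads in knockout cells and 15 in the parental group, and PDGFRB, with 16 knockout and 14 parental reads, were near the limit. Of 6 endothelial markers, 3 were tested, of which CDH5 rose (2.74) and PECAM1 and TEK did not pass (1.70 and -0.60), with sums of 1.29 to 1.77 CPM in knockout cells and 0.686 to 1.37 CPM in parental libraries. Without parental replicate 3, CDH5 and PECAM1 rose (2.22 and 2.76), and TEK and VWF fell (-1.05 and -2.78). The call of CDH5 was lost without knockout replicate 1, knockout replicate 3 or parental replicate 1. The part of these markers in the rise of C1S, CLU and THBD was not tested.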

How the data were processed

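RNA-seq of 3 SMARCA4 knockout and 3 parental H2122 libraries was analysed from the deposited raw read counts per gene symbol, with no scaling by the authors. Reads were aligned with TopHat2 2.1.1 to hg38 and counted with HTSeq 0.11.0, per the submitters' processing notes; the annotation release is not given in the sources used here, nor is the strand setting. The 5 unassigned classes, 13.8% to 15.3% of reads per file, were left out. Gene reads were 55120937 to 59917980 per library.

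The main test used edgeR 4.0.16 in R 4.3.3 after its default filterByExpr filter and TMM scaling (robust quasi-likelihood F-test, two-sided, group as the only term), with Benjamini-Hochberg adjustment over 17809 genes. Standard errors and unadjusted 95% intervals were derived from the F value. Alternatives used RLE and upper-quartile factors, other filters, DESeq2 1.42.0, limma-voom (limma 3.58.1), a replicate block and each library left out. Exact permutation tests were run over libraries for the C1S to C1R ratio and the summed membrane regulators. The fit was checked on simulated data. Positions and exon lengths are from GENCODE 29 (GRCh38). Replicates of a group differed beyond counting noise, with a chi-square per degree of freedom of 6.1 to 426.3.

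The members and gene lists were chosen with earlier results of these data known. Named genes were the 9 members; of the other complement genes, those passing at a mean of at least 1 CPM and up to 3 per role that did not pass; of the closing lists, up to 4 passing genes averaging 5 CPM or more; and the 3 genes most like C3. The results of 2 list genes are not reported here, though the counts of lists include them.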

Additional observations from a re-analysis of the deposited data

How the results depend on the processing

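C3, CFB, CFI, C1S and CD55 kept their direction and call under every alternative that gave a value, with log2 fold changes of -1.21 to -1.08, -2.87 to -2.27, -5.41 to -4.42, 2.57 to 2.77 and 1.76 to 1.96. A minimum of 1 CPM in 3 libraries left out C5, CFB and CFI, so that 1 of the 9 genes fell and, of the other complement genes, 1 fell. C1R, never called, turned to 0 with no low-count filter and ranged from -0.21 to 0.25 with a library left out. CD59 ranged from -0.29 to 0.43. The labels share replicate numbers, but same-numbered deviations correlated at -0.08, 0 and -0.1, and no library correlated best with its own number. These correlations gave no sign of pairing, but with 3 libraries per group they cannot exclude it. The replicate block gave 3040 changed genes in place of 4912, with 2 of the 9 rising and 3 falling; the call of CD46 was lost (0.48, adjusted p = 0.0751), as were those of CR2, MARCO, CDH5, COL1A1, KRT8, PGAP1, PIGA, PIGG, IRF1 and STAT3. With a library left out, 2692 to 11325 genes changed, 2 to 3 of the 9 rose, 3 to 4 fell, and 2 to 6 other complement genes fell. DESeq2 called 5 of these falling. With the longest transcript as length, 4 positions in the order of levels changed, CD55 passing CD46 and C1S passing C1R in the parental group. The causes were not tested. CFB and CFI had 19 and 5 reads over the knockout group, where 3 reads per library are the limit.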

Other observations

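Genes for the assembly and attachment of the GPI anchor, which holds CD55 and CD59 in the membrane, were mostly not called. Of 27 tested, 1 rose, 2 fell and 24 did not pass, where 27.6% of all genes tested were called. The median log2 fold change of the list was 0.04. PGAP1, which remodels the anchor after attachment, rose by 0.76 (10.9 ± 0.733 CPM in knockout cells and 6.43 ± 0.953 CPM in parental cells, edgeR adjusted p = 0.0142). PIGA, a subunit of the enzyme that starts anchor synthesis, changed by -0.70 (edgeR adjusted p = 0.0158) and PIGG by -0.33 (edgeR adjusted p = 0.0327). Each of these 3 calls was lost without knockout replicate 1, knockout replicate 2 or parental replicate 2, and those of PIGA and PIGG also without knockout replicate 3 or parental replicate 1; without parental replicate 3 the list counted 10 rising and 5 falling, in a fit that called 61.6% of all genes tested, 30.8% in each direction.

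Of 10 transcription factors described at complement promoters, 8 were tested. Of these 1 rose, 3 fell and 4 did not pass, where 27.6% of all genes tested were called. CEBPB rose to 127.8 ± 6.35 CPM in the knockout, against 79.9 ± 15.2 CPM in parental cells (log2 fold change 0.68, edgeR adjusted p = 0.0239), and CEBPA changed by -0.97 (0.0123), IRF1 by -0.61 (0.0339) and STAT3 by -0.51 (edgeR adjusted p = 0.0422). The calls of CEBPB, IRF1 and STAT3 were each lost without any of the knockout libraries, and that of CEBPA without knockout replicate 2 or 3. Those of IRF1 and STAT3 were also lost without parental replicate 1 or 2. NFKB1, RELA and CEBPD were among those that did not pass (0.18, 0.11 and -0.22).

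Of 18 acute phase genes, 10 were tested. Of these 1 rose, 4 fell and 5 did not pass, where 27.6% of all genes tested were called. LCN2, an antibacterial siderophore-binding protein, fell to 6.66 ± 0.395 CPM in the knockout, against 199.8 ± 95.5 CPM in parental cells (log2 fold change -4.91, edgeR adjusted p = 0.00072). SERPINA1, which encodes alpha-1-antitrypsin, fell to 1.72, 1.78 and 1.66 CPM in knockout libraries, against 65.4, 56.4 and 27.2 CPM in parental ones (-4.85, edgeR adjusted p = 0.000349). Without parental replicate 3, 2 acute phase genes rose and 6 fell, in a fit that called 61.6% of all genes tested, 30.8% in each direction. FGA, a fibrinogen chain, was then called at 2.39, against 1.14 with all libraries, and SAA1 and CP at -1.45 and -0.28, against -1.02 and -0.19.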
